A study of Mus musculus with 4 samples.

Results

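Shared exon peaks are sites of open chromatin, found in both biological replicates of mouse acute myeloid leukemia (AML) cells, that lie in the exons of protein-coding genes and away from the starts of such genes. In DNase-seq, accessible chromatin is digested by DNase I and the ends it leaves are sequenced. The 4 libraries came from AML cells of the C57BL/6J strain, a cancer of the myeloid blood lineage, which the labels also describe as in vitro differentiated. Biological replicates 1 and 2 had 2 libraries each, the labels give the same donor for both, and they name no treatment, time or control. Neither the driving mutation nor the sex and age of the donor was given in the labels. The authors pooled the libraries of each replicate, and with 1 list per replicate no value below has a replicate error. As a check of the label, a shared promoter peak was present at all 12 myeloid transcription factor genes, 21 of 22 leukocyte receptor and signalling genes, 15 of 18 monocyte genes and 14 of 20 neutrophil genes, Elane, Ltf and Lcn2 not among them. Of the lists of other lineages, 7 of 12 neuronal, 6 of 12 T cell, 5 of 12 B cell, 5 of 12 muscle, 4 of 12 erythroid and 3 of 12 hepatocyte genes had one, Cd79a, Cd79b and Alb not among them. Such a peak was present at 59.6% of the 20741 coding genes with exon sequence over 1 kb from every start.

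A member is a 150 bp window of the longer peak list, that of replicate 1, that overlaps a peak of replicate 2 by at least 1 bp, overlaps an exon of a protein-coding gene and lies more than 1 kb from the start of every transcript of such a gene. The rule found 2898 windows among the 61731 shared peaks of the 19 autosomes and X, or 4.69%. Of 12166 exon peaks of replicate 1, 2898 were shared (23.8%), and the same share was 20.6% for intron peaks, 22.9% for intergenic peaks and 26.1% for all 236109 peaks. Sharing was part of the rule, so nothing is read from these shares. With the replicate 1 list alone there were 12166 exon peaks, and with the replicate 2 list alone 3195.

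Exons hold the protein code and the untranslated ends of the message, and the same bases can also be bound by transcription factors in the chromatin. Regulatory elements inside exons are known as exonic enhancers, and CTCF, a zinc finger protein that shapes chromatin loops, binds exons as well as introns. In myeloid cells PU.1 of the ETS family, C/EBP and RUNX factors are known to act at distal enhancers. The 3′ UTR, transcribed but not translated, is found mostly in the last exon of a gene.

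The following windows lay wholly in coding sequence and show a factor's consensus among coding bases, without the reading frame marked. The letters are those of the reference strand of mm10 (RefSeq copy of the assembly, not the sequence of these cells), written 5′ to 3′, and the capitals mark the consensus match. Synpo2l, Prr36, Trim46 and March4 are genes of the opposite strand, so their printed letters are the reverse complement of the coding strand. The first pair holds a CTCF match, in exon 3 of Rasip1, which encodes a regulator of blood vessel formation (chr7:45628896-45629045), and in exon 4 of Synpo2l, a gene of the muscle cytoskeleton (chr14:20661056-20661205).
Rasip1: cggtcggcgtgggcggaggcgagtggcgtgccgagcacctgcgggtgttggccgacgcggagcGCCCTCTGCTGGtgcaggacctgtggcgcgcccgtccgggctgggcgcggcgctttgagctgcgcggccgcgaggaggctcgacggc
Synpo2l: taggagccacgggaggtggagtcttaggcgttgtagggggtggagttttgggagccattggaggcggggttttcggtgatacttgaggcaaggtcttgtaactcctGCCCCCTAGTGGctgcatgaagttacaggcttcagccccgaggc

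The next windows hold the PU.1-type ETS consensus GAGGAAGT, in exon 10 of Parp1, the DNA damage sensor poly(ADP-ribose) polymerase (chr1:180587936-180588085) and in exon 6 of Prr36 (chr8:4214456-4214605). Parp1 has a match on each strand, and its window lies 735 bp from the start of a gene not typed protein coding. In Prr36 the last base of the match is also the first base of a RUNX consensus, spelled TGTGGTTT.
Parp1: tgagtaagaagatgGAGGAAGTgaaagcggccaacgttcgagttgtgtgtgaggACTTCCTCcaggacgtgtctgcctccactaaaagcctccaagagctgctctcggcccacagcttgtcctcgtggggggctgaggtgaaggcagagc
Prr36: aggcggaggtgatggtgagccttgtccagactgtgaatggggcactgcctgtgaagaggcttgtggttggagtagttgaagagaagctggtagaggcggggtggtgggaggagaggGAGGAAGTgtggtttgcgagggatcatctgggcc

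One window each shows the generic ETS consensus CCGGAAGT in exon 4 of Pomc, the precursor of several peptide hormones (chr12:3959936-3960085), a C/EBP match in exon 3 of Trim46 (chr3:89243656-89243805), and an AP-1 match in exon 4 of March4, which encodes a membrane-bound ubiquitin ligase (chr1:72428676-72428825).
Pomc: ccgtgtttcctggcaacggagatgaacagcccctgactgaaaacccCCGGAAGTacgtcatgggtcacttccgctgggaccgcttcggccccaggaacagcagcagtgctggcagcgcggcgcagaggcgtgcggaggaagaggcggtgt
Trim46: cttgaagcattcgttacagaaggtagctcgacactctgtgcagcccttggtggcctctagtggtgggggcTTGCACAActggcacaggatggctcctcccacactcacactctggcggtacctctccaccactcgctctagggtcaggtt
March4: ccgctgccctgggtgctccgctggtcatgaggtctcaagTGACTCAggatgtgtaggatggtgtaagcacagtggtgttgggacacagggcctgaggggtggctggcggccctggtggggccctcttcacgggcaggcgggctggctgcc

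These windows were chosen among the highest-ranked wholly coding ones with a match, so high scores follow from the choice. All were above the upper quartile of shared exon peaks in replicate 1 (132), while in replicate 2, where that quartile was 46, Parp1 was below it. The Rasip1 window scored 138 in replicate 1 and 85 in replicate 2, and that of Synpo2l scored 140 and 81. The windows of Parp1 and Prr36 scored 139 and 146 in replicate 1 and 43 and 47 in replicate 2. Those of Pomc, Trim46 and March4 scored 140, 142 and 148 in replicate 1 and 67, 61 and 74 in replicate 2. The score is the authors' own, a whole number up to 150 whose scale the sources used here do not state. It was used to rank windows within a list.

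By number, most shared exon peaks lay in last and internal exons, as did exon peaks of replicate 1 as a whole. Of the 2898 windows, 1499 (51.7%) fell in the last exon of the chosen transcript, 1225 (42.3%) in an internal exon, 37 (1.28%) in a first exon and 137 (4.73%) in a transcript of a single exon. All 12166 exon peaks of replicate 1 split likewise, with 50% in last, 42.2% in internal and 1.57% in first exons. Per Mb of exon sequence over 1 kb from every start the order was another: last exons had 35.7 shared centres and internal exons 33.4, against 62.3 in single-exon transcripts (63 centres) and 88.2 in first exons (22 centres). Distance to a start was not accounted for in this order. Of first-exon windows 94.6% lay 1 to 2 kb from a coding start, and of single-exon windows 61.3%, against 20.3% for internal and 15.1% for last exons. The small number in first exons follows from the rule, which leaves only first exons longer than 1 kb. The first-exon share was 8.33% when only the starts of transcripts typed protein coding counted as starts, and 0.0473% with a window of 2.5 kb. Counting exon bases only, coding sequence was the largest part of 1514 windows (52.2%), 3′ UTR that of 1003 (34.6%) and 5′ UTR that of 48 (1.66%). The other 333 (11.5%) overlapped exons of noncoding transcripts of a coding gene only, and so lie outside the exons of every transcript typed protein coding. Retained intron transcripts held 224 windows, processed transcripts 71 and transcripts subject to nonsense-mediated decay 38.

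Each class had its own makeup. By the largest exon part, 92.6% of internal-exon windows were coding, though these windows held a median of only 80 exon bases. Last-exon windows were 3′ UTR in 64.4% and coding in 22%. Within the last exon, the 1406 windows with their centre in it spread over its whole length, with 22.2% in the quintile of its length next to the splice site, 19.1%, 20.5% and 21.8% in the following ones and 16.4% in the quintile at the transcript's end. Internal exons are short: 561 of the 1225 windows (45.8%) lay at an exon shorter than the window. The median length of the internal exons hit was 157 bp, against 124 bp for all 166946 internal exons, and the last exons hit had a median of 2190 bp, against 1177 bp for all 20255. Longer exons offer more bases to overlap, and this part of the difference was not tested.

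**Figure D1:**
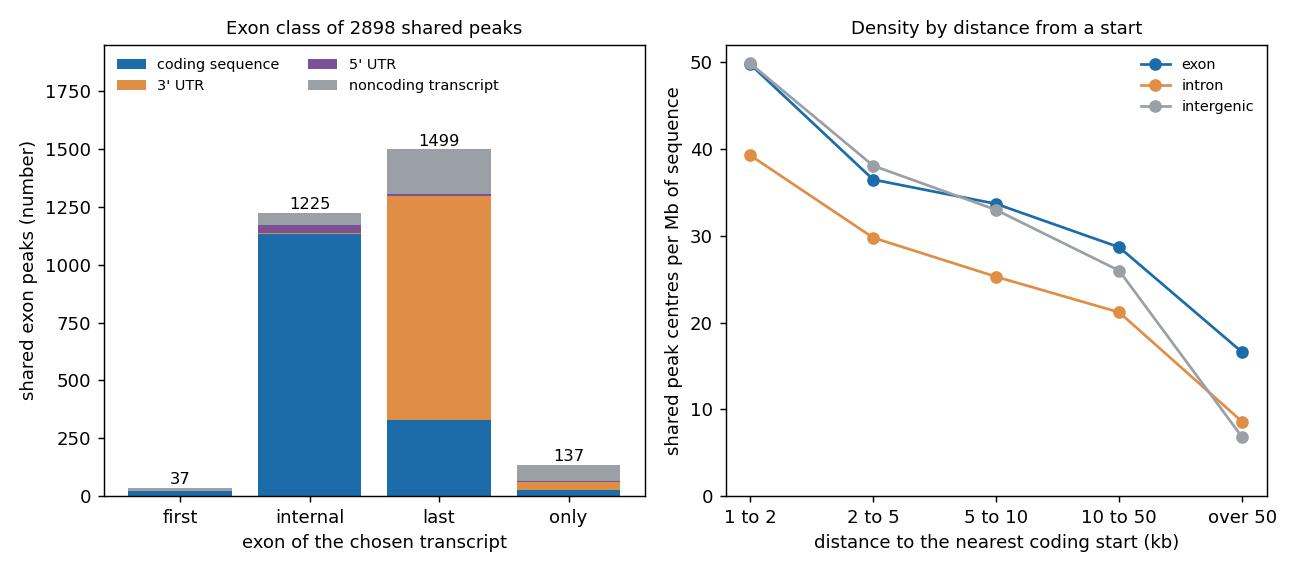
Left, the number of shared exon peaks by exon class of the chosen transcript, with 1499 in last and 1225 in internal exons. Colours give the part with the most exon bases in the window, intron bases not counted. Right, shared peak centres per Mb of exon, intron and intergenic sequence by distance from the nearest coding start, where exon sequence was above intron sequence in every bin.

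Many windows in internal exons were edge cases, among them some of the windows named below. The centre lay inside the exon in 688 of 1225 (56.2%), upstream of it in 224 and downstream of it in 313, and 245 (20%) lay wholly inside. In last exons 1406 of 1499 centres (93.8%) lay inside. Over all classes 1689 windows (58.3%) lay wholly in exon sequence of the chosen transcript and 416 (14.4%) wholly in coding sequence, while 64 (2.21%) touched the exon by fewer than 10 bases. Exons of more than 1 class were overlapped by 267 windows (9.21%). When the centre had to lie in the exon, the shares were 30.2% for internal and 62.3% for last exons, and with exons of protein-coding transcripts alone the internal share was 45.7%.

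Exon sequence held more shared peaks per base than intron sequence. Over 1 kb from every start, exons of 1 transcript per gene had 35.6 shared peak centres per Mb, with 38.8 in coding sequence and 32.3 in 3′ UTR, against 20.2 in introns and 14.6 between genes. Exons lie closer to starts, and density falls with distance. Between 1 and 2 kb from a start, exon sequence had 49.8 shared centres per Mb, against 39.3 in introns and 49.9 in intergenic sequence. Between 10 and 50 kb it had 28.7, against 21.2 in introns and 26 in intergenic sequence. At matched distance exon sequence thus stood above intron sequence in all 5 bins, and within 50 kb its density was close to that of intergenic sequence. Beyond 50 kb exon sequence had 16.6 centres per Mb (84 centres), against 8.59 in introns and 6.81 between genes. Peaks of replicate 1 alone gave 171 per Mb in exons between 1 and 2 kb, against 161 in introns and 184 in intergenic sequence.

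The windows were near starts more often than intron peaks. Of the shared exon peaks 595 (20.5%) lay 1 to 2 kb from a coding start, against 10.2% of shared intron peaks, and the median distances were 5299 bp and 11140 bp. A replicate 1 hotspot, a wider region of dense cuts, joined 324 windows (11.2%) to the 1 kb zone around a start, against 4.75% of intron peaks, and a replicate 2 hotspot did so for 78 (2.69%), against 1.27%. Hotspots reached their ceiling of 100 on the −log10 scale of the deposited q-value at 98% of the windows in replicate 1 and 37.6% in replicate 2, against 98.4% and 34.3% of shared intron peaks. Starts missing from GENCODE touch some windows too: 98 (3.38%) lay within 1 kb of the start of a RefSeq mRNA, curated or predicted, and among the 50 of highest rank 7 did (14%). Counting starts of curated RefSeq mRNAs alone, 29 windows did (1%). Starts of genes not typed protein coding were no part of the rule. Of the windows 129 (4.45%) lay within 1 kb of such a start, against 3.11% of shared intron peaks. Just inside the limit of 1 kb, at 1003 to 1200 bp, 155 windows had median scores of 115 in replicate 1 and 34 in replicate 2. Just outside it, at 801 to 997 bp, 187 shared exon-overlapping windows had medians of 116 and 36.

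Scores of shared exon peaks were close to those of other shared peaks outside promoters. The median was 117 in replicate 1 (quartiles 100 and 132) and 34 in replicate 2 (25 and 46). Shared intron peaks had medians of 117 and 31, and intergenic ones 116 and 32. By class, internal exons had medians of 115 and 32, last exons 117 and 35, single-exon transcripts 127 and 36, and first exons 104 and 30. The quartile ranges of all classes overlapped. Exon peaks of replicate 1 without a partner had a median of 63, against 63 for such intron peaks, and the replicate 1 list alone gave 72 for all exon peaks. Across the 2898 windows, which share the same pair of lists, the 2 scores had a Spearman rho of 0.671, and it was 0.673 across shared intron peaks.

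**Figure D2:**
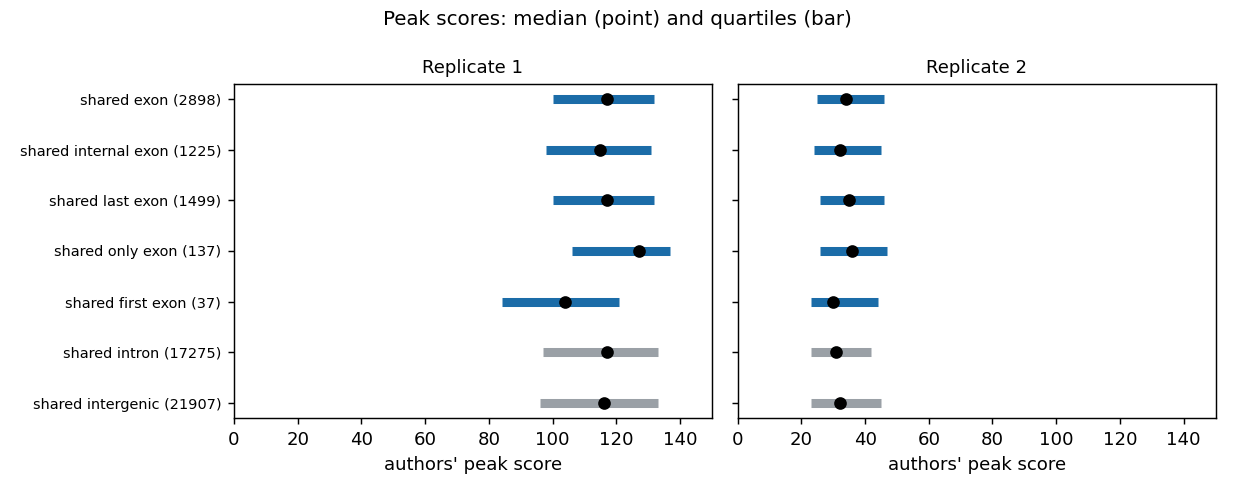
Medians (points) and quartiles (bars) of the authors' peak score in replicate 1 (left) and replicate 2 (right) for shared exon peaks, their classes, and shared intron and intergenic peaks, with the number of windows in brackets. The ranges of all groups overlap, with medians of 117 in replicate 1 and 34 in replicate 2 for shared exon peaks.

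Exon windows were rich in GC. The median GC content was 54% in shared exon peaks (56% in coding, 52.7% in 3′ UTR windows), against 50.7% in shared intron peaks and 46.7% in 334221 exon windows of the same width without a replicate 1 peak. The ratio of observed to expected CpG had a median of 0.351, against 0.231 in shared intron peaks and 0.758 in promoter peaks. Repeats covered most bases of 55 windows (1.9%), against 8.49% of intron peaks. Differences in GC and distance move with every comparison of exon and intron windows below, and their part in those results was not tested.

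Of the 12 motifs searched, CTCF differed most between shared exon peaks and exon sequence without a peak. Its consensus is longer than the 6 to 8 letters searched for most other factors, and this length was not accounted for. CTCF matched 311 of 2898 windows (10.7%), against 9.6% of shared intron peaks and 10.6% of shared intergenic peaks. Of peakless exon windows 0.0482% had a match, which is 161 of 334221. Last exons had a match in 12.2% of windows, internal exons in 9.96% and single-exon transcripts in 2.92% (4 of 137). By the part with the most exon bases, 3′ UTR windows had 13.9% and coding windows 8.85%. The match could lie anywhere in the 150 bp, intron bases included. Among the 416 windows wholly in coding sequence the share was 4.57%, with 19 matches, and PU.1-type ETS also matched 4.57%. Of all shared exon peaks with a CTCF match, 71.4% had it within 25 bp of the window's centre, against 72.5% in introns. Exon peaks of replicate 1 without a partner had 1% with a match, and the replicate 1 list alone gave 3.32%.

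By mean rank, the share with CTCF was not highest at the strongest windows. By quintiles of the mean rank in both lists, from the weakest to the strongest, it was 8.97%, 10.9%, 12%, 13% and 8.79%. PU.1-type ETS matches ran at 7.07%, 7.25%, 7.57%, 5.54% and 4.48% over the same quintiles. With scores at or above the median of both lists CTCF matched 13.6% and PU.1-type ETS 4.48% of windows. Lists of equal length, which keep the highest-scored peaks of replicate 1, gave 8.98% and 7.3%. The CTCF share among strong windows thus differed with the measure of strength.

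Motifs of myeloid factors were found more often in shared exon peaks than in peakless exon windows, and most of them less often than in intron peaks. The PU.1-type ETS consensus matched 6.38% of shared exon peaks, against 7.99% of intron peaks and 0.841% of peakless exon windows. AP-1, TGAGTCA, matched 4.55%, against 6.69% and 2.01%, and RUNX matched 2.07%, against 3.49% and 0.998%. C/EBP, searched as TTGCGCAA or with the middle letters of TTACGCAA or of TTGCACAA, matched 2.66%, against 2.67% and 0.563%. GC-rich motifs had the opposite order. KLF/SP, CCCCGCCC, matched 4% of exon peaks, against 2.52% of intron peaks and 0.482% of peakless exon windows, and generic ETS matched 1.48%, against 0.753% and 0.251%. In exon peaks of replicate 1 without a partner, PU.1-type ETS (7.23%), AP-1 (5.18%) and RUNX (2.48%) were more frequent than in shared exon peaks. C/EBP (1.92%), KLF/SP (2.2%) and generic ETS (0.96%) were less frequent there.

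The E-box CAGCTG was frequent in exons whether or not they were open, with 12.4% of shared exon peaks, 10.6% of intron peaks and 9.48% of peakless exon windows. NFY, CCAATCAG, matched 0.725%, against 0.66% of intron peaks and 0.477% of peakless windows. The consensus of GATA factors, spelled AGATAAG, matched 0.932% of shared exon peaks, below the 1.74% of intron peaks and the 1.59% of peakless exon windows. REST, a repressor of neuronal genes, matched 3 windows (0.104%). One such match lay in the coding sequence of the connexin gene Gja10 (scores 113 and 44), at 977 bp from a RefSeq mRNA start. Leaving the E-box aside, 896 windows (30.9%) held a match to at least 1 of the other 11 motifs, against 33% of intron peaks. That leaves 2002 windows (69.1%) with none of these letters, which says nothing about which factors bind there.

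**Figure D3:**
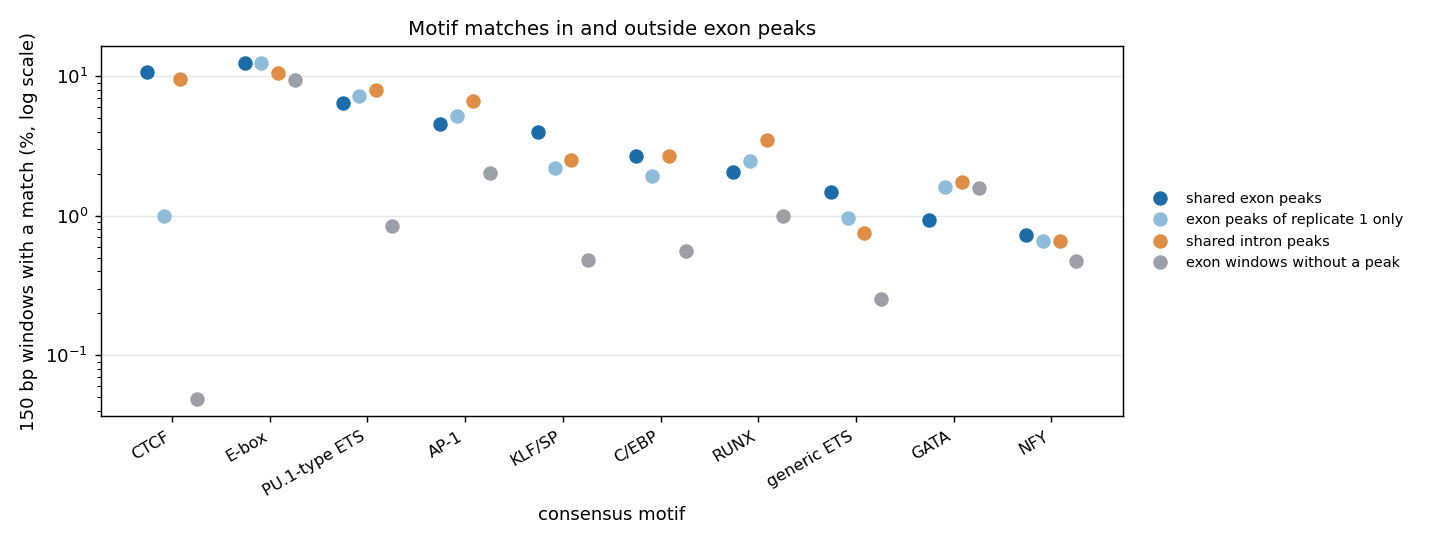
Percent of 150 bp windows with a consensus match on either strand (log scale) for 10 motifs, in shared exon peaks, exon peaks of replicate 1 only, shared intron peaks and exon windows without a peak. CTCF, the longest consensus shown, was at 10.7%, 1%, 9.6% and 0.0482% in these sets, the widest spread of the motifs shown.

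The same matches can be counted from the motif: the share of all consensus matches that lay in a shared peak was higher in exons than in introns for each of 5 motifs. Over 1 kb from every start, 564 CTCF matches were centred in exons of coding genes, and 243 of them (43.1%) lay in a shared peak, against 37.2% of 4746 in introns and 35.8% of 6559 between genes. A further 76 exon matches (13.5%) lay in a peak of replicate 1 alone, a lower share than the 17.1% in introns and the 15.8% between genes, and 245 (43.4%) lay in no peak, against 45.7% and 48.4%. The PU.1-type ETS consensus had 4732 matches in exons, of which 3.59% lay in a shared peak, against 2.83% in introns and 1.77% between genes. Another 12% lay in a peak of replicate 1 alone, against 10.7% and 7.09%. Shares in a shared peak were 2.42% for C/EBP in exons, against 1.7% in introns, 1.07% for AP-1, against 0.856%, and 0.978% for RUNX, against 0.84%. The share was lowest between genes for all 5. Shared peaks of any kind had the same order, with 35.6 centres per Mb in exons, 20.2 in introns and 14.6 between genes. Neither this density, the distance to a start nor the length of the consensus was accounted for.

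**Figure D4:**
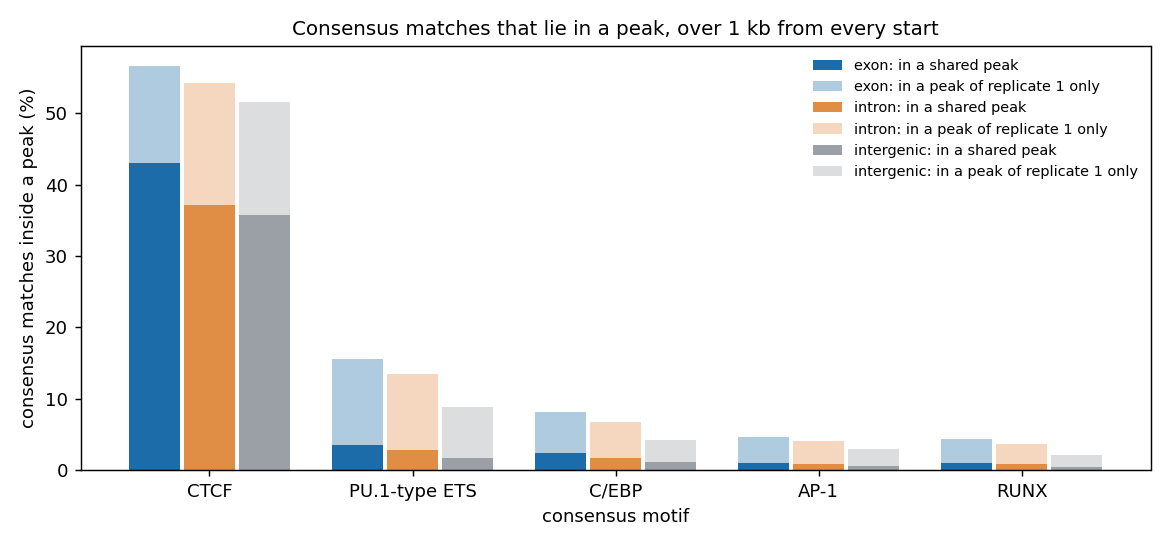
Percent of consensus matches over 1 kb from every coding start that lie in a shared peak (dark) or in a peak of replicate 1 only (light), for matches centred in exon, intron and intergenic sequence. For CTCF, the longest consensus shown, 43.1% of exon matches lay in a shared peak, and for PU.1-type ETS, the next highest, 3.59% did.

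The reading frame limits where a consensus can lie in coding sequence. The AP-1 consensus reads TGA in both orientations at its start, a stop codon in frame. None of its 26 matches in the coding sequence of shared exon peaks, and none of 2355 in peakless exon windows, began at the first codon position. The E-box began there in 96 of 171 matches (56.1%), against 53.3% in peakless windows. Of the 39 PU.1-type ETS matches in the direction of the gene 24 began at the first position, against 538 of 843 in peakless windows. CTCF had 55 matches in coding sequence, 25 in the direction of the gene and 30 against it, while peakless windows had 34 with and 63 against.

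The strongest windows in internal exons lay in genes of varied function. The highest ranked was at exon 6 of Prdm2, a histone methyltransferase gene, with scores of 150 and 101. Only 27 of its bases were exonic, and it lay 4 bp from a RefSeq mRNA start. Angptl6, which encodes a secreted protein, scored 150 and 100 in exon 2, at 194 bp from such a start. Sptbn4, a spectrin gene, scored 148 and 110 in exon 33 and Inpp5b, an inositol phosphatase gene, 150 and 95 in exon 7. They lay 5501 and 9606 bp from the nearest RefSeq mRNA start, but the Inpp5b window lay 102 bp from the start of a gene not typed protein coding. A window at exon 8 of Itgb2, which encodes the common chain of the leukocyte integrins, scored 148 and 97, lay 20676 bp from the nearest coding start and held a C/EBP match and an E-box. Only 13 of its bases were coding, the rest being the flanking intron.

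In last exons the highest ranks went to the 3′ UTR of Mid1, a ubiquitin ligase gene (148 and 108), to the 5′ UTR of Pura, a gene for a nucleic acid binding protein (149 and 98), at 608 bp from a RefSeq mRNA start, and to Trib1 (149 and 92). Trib1 encodes a pseudokinase that promotes the degradation of C/EBP alpha, and its window held an AP-1 and an NFY match. Fbxl22 (147 and 90) and Syngr1 (147 and 88) were among the next. Celsr3, an atypical cadherin gene (142 and 72), Myo15b (134 and 77) and Trim8 (135 and 60) were among the strongest in first exons, at 1114 to 1270 bp from a start. Among single-exon transcripts Rap2b, a small GTPase gene, scored 150 and 93 and the splicing factor gene Sf3b5 149 and 84. Both of these windows contained a RefSeq mRNA start, so they lie at a promoter by that annotation. The immediate early gene Ier2 (149 and 84) had a C/EBP match in its 3′ UTR.

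Shared exon peaks touched 2414 of 20741 coding genes with exon sequence over 1 kb from every start (11.6%). A single window was found in 2023 of them and 2 or more in 391. The share with a window followed the length of that sequence, at 3.56%, 7.6%, 11%, 14.4% and 21.6% over quintiles of length from the shortest to the longest. A shared promoter peak was present at 74.4% of genes with a window, against 57.6% of those without, and a shared intron peak at 53.7%, against 29.5%. In the longest quintile the promoter shares were 84% and 71.3%, and in the shortest 52% and 41.2%, so the order was the same in both. Length medians were 4106 bp with a window and 2374 bp without.

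Genes of the myeloid programme held several windows. Of 11 eligible myeloid transcription factor genes 4 (36.4%) had one, against 11.6% of all eligible genes. Spi1, which encodes PU.1, had a coding window in its last exon (104 and 27). Cebpd had 3 in its 3′ UTR, with scores of 103, 112 and 145 in replicate 1 and 21, 32 and 54 in replicate 2, the middle one with a PU.1-type ETS match. Irf8 had 1 in an exon of a noncoding transcript (143 and 66) and Klf4 1 in coding sequence (138 and 30). All 3 Cebpd windows ranked in the same order in both lists, and in replicate 1 they lay in a hotspot of 2491 bp.

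Of 16 genes of the HOXA-MEIS leukemia programme 4 (25%) had a window. Flt3, the receptor kinase gene often mutated in human AML, had one in coding exon 20 (137 and 42) and one in a noncoding transcript (145 and 47) with a PU.1-type ETS match. Meis1 had a 3′ UTR window 128237 bp from the nearest coding start (143 and 46), and the demethylase-family gene Jmjd1c a coding one (133 and 32). Sox4 had a pair of weak coding windows (88 and 23, 74 and 19). Among 18 stem and progenitor regulators 2 had one (11.1%): Myb, with 2 windows (136 and 65, 146 and 41), and Lyl1, whose 3′ UTR window held a CTCF match (127 and 66). The first Myb window contained the start of a gene not typed protein coding, and the second lay 369 bp from such a start. Of 32 genes mutated in human AML only Flt3 and Kmt2a (105 and 28) had one (6.25%).

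Among 22 leukocyte receptor and signalling genes 4 had a window (18.2%): Itgb2, the Src-family kinase gene Lyn (113 and 35), the actin-bundling gene Lcp1 with a CTCF match in its 3′ UTR (93 and 28), and Ptprc, which encodes the common leukocyte antigen, with 2 overlapping windows that are 80% and 92% repeat. Neutrophil genes had 3 of 19 (15.8%): the collagenase Mmp8 (143 and 56), the gelatinase Mmp9 (115 and 33) and Padi4, whose enzyme citrullinates histones (109 and 50). The Padi4 window held only 31 exon bases. Padi4 had no shared promoter peak, and neither had the scavenger receptor gene Msr1. Monocyte genes had 3 of 18 (16.7%): Msr1 (134 and 48), Cd300lf (143 and 38) and the chemokine receptor Ccr2 with 2 windows (137 and 34, 141 and 21), the second of which lay 8 bp from a RefSeq start.

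Histone modifier and remodeller genes had 9 of 24 (37.5%), with a median of 7296 bp of eligible exon sequence, against 2550 bp over all eligible genes. Kdm6b had 2 windows (149 and 57, at 784 bp from a RefSeq mRNA start, and 134 and 69). The second held only 42 exon bases and lay 28 bp from the start of a gene not typed protein coding. Hdac4 (141 and 56), Kmt2d (139 and 43), Setd1b (128 and 54), Arid1b (124 and 38), Arid1a (118 and 35), Ep300 (109 and 20), Kmt2a and Ncor1 (43 and 12) had 1 each. Ncor1 had the lowest scores of these. Actin and membrane skeleton genes had 5 of 20 (25%), led by Actn1 (141 and 71) and by the sialophorin gene Spn with an AP-1 match in its 3′ UTR (139 and 45). The others were Myh9, Sptbn1 and Vcl.

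Genes of other lineages were not free of windows. Of 12 muscle genes 6 had one (50%), named here after their values were seen: Ckm (143 and 79, 133 and 48), Ryr1 (141 and 47, 119 and 31), Myog (61 and 31), Neb (84 and 19), Ttn (59 and 17) and Acta1 (51 and 21). Of these Myog, Ttn and Acta1 had no shared promoter peak. The first Ckm window contained the start of a gene not typed protein coding. Erythroid genes had 3 of 11 (27.3%), T cell genes 2 of 12 (16.7%), hepatocyte genes 2 of 12 (16.7%), B cell genes 1 of 11 (9.09%) and neuronal genes 1 of 12 (8.33%). None of the 13 eligible housekeeping genes had one, and 39 of 463 zinc finger genes did (8.42%). These lists are small and differ in exon length, and no list was tested against the others.

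Most windows stood alone in their gene, and 6 genes had 5 or more. Mid1 had 12, which ran from exon 4 to the last exon, 10, at the end of the X chromosome, in the part of the gene that pairs with Y in this strain. Their scores were 115 to 148 in replicate 1 and 43 to 108 in replicate 2, all at or above the median of the shared exon peaks in replicate 2, and 3 of them were 82% to 88% repeat. The sources used here do not say how reads from repeated copies were placed. The AP-1 subunit genes Fosb and Jun had 6 and 5. Those of Fosb scored 123 to 137 in replicate 1 and 35 to 50 in replicate 2, and those of Jun, a gene of 1 exon, 122 to 137 and 31 to 47. Unc13a, a synaptic vesicle gene, had 6 (122 to 144 and 29 to 88), with KLF/SP matches in 3. The scaffold gene Itsn1 had 5 (119 to 148 and 21 to 84), and the nuclear envelope gene Syne1 5 (60 to 140 and 16 to 42), the highest of them 15 bp from a RefSeq mRNA start. Windows of Syne1 lay in 5 different internal exons of 146, and those of Fosb, Jun and Mid1 sat close together. In replicate 1 all Fosb windows lay in a hotspot of 11882 bp and all Jun windows in one of 8995 bp. In replicate 2 their hotspots were 80 to 1141 bp wide at Fosb and 544 to 698 bp wide at Jun. The nearest Mid1 and Jun windows lay 107 and 526 bp from the start of a gene not typed protein coding. In all, 49 windows overlapped another member, so that they are not separate sites.

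**Figure D5:**
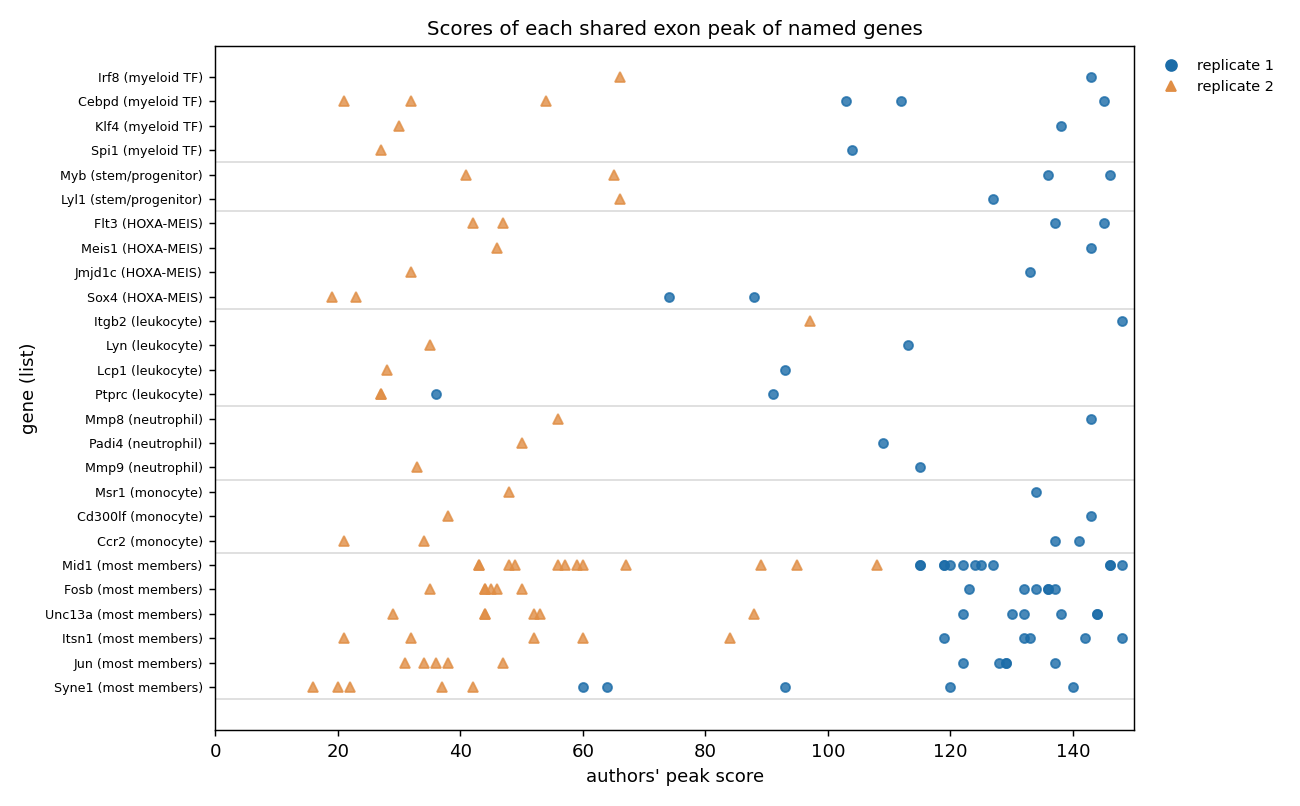
Authors' peak score of each shared exon peak in the genes of 6 lists (myeloid transcription factors, stem and progenitor regulators, HOXA-MEIS, leukocyte, neutrophil, monocyte) and in the 6 genes with most windows, with replicate 1 as circles and replicate 2 as triangles, grouped by list from top to bottom. Among these genes Mid1 reached the highest score in replicate 2, 108, below the 110 of Sptbn4, which is not plotted.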

How the data were processed

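DNase-seq was deposited for 4 libraries, 2 per biological replicate. Per the labels and the text files deposited with the samples, the authors pooled the 2 libraries of a replicate into 1 alignment to mm10 and deposited 1 peak list and 1 hotspot list for each replicate. The sources used here name neither depth nor caller, and no interval that needs depth is given. The deposited peak list holds a score per 150 bp window, whose making is not stated, and the deposited hotspot list holds the −log10 of a q-value. Of repeated entries (48 in replicate 1, 5 in replicate 2) the strongest was retained.

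Windows were placed on GENCODE M21. A start was the first base of every transcript of a protein-coding gene. A window with several exons took the protein-coding transcript first, then the principal, the basic, the larger overlap and the longer transcript. Exact consensus matches to each motif were sought on both strands of a window with Python 3.11.15, numpy 2.4.6 and pandas 2.3.3. The scripts were tested on simulated data. With 1 list per replicate no test over samples was possible, and windows are not replicates, so values are descriptions without p-values.

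The members, the gene lists and the motifs were chosen with earlier results of these data known. Named genes are the 6 members of highest mean rank in each exon class, every gene of the first 9 lists with a member, the 6 genes with most members and the highest-ranked wholly coding members with a motif match. Alternatives were other start, exon and overlap rules, a score threshold, lists of equal length and each list alone.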

Additional observations from a re-analysis of the deposited data

How the results depend on the processing

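Of 69 values under 10 alternatives, 51 kept within the 95% binomial interval of the reported value or, for counts, within 1.5 times of it. The interval counts windows as independent draws, which they are not, and the alternatives reuse many of the same windows. It serves as a yardstick of size only and measures no error between replicates. The share in last exons was 43.9% with the starts of transcripts typed protein coding only, 55.7% with a 2.5 kb window, 62.3% with the peak centre in the exon and 54.7% with scores at or above both medians. For first exons the first pair of settings gave 8.33% and 0.0473%. Internal exons held 30.2% by the peak centre, 45.7% with exons of protein-coding transcripts and 39% with the score threshold. That threshold also left 1405 windows, a median replicate 1 score of 129, CTCF matches in 13.6% and PU.1-type ETS matches in 4.48%. With lists of equal length CTCF matched 8.98% and the median was 124. With 1 list alone the number of exon peaks ranged from 3195 to 12166 and the CTCF share from 3.32% to 10.5%. The replicate 1 list alone gave a median of 72, and the replicate 2 list has no replicate 1 score. The changes with the start, exon and score rules follow from which windows each rule keeps, and the cause of the others was not tested. The limit of 1 kb from every RefSeq mRNA start, chosen after seeing the data, left 2800 windows and moved none of the 7 results beyond these limits. No paired analysis was possible because each replicate has 1 pooled list. Depth is unknown.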
